A study of Mus musculus with 12 samples.

Results

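The genes described here are 10 genes known from the trophoblast, the outer cell lineage of the early embryo that forms the fetal part of the placenta. They comprise 5 transcription factors of the early trophectoderm (Cdx2, Eomes, Elf5, Tead4 and Tfap2c), 2 transcription factors of later trophoblast differentiation (Hand1 and Ascl2) and 3 simple epithelial keratins (Krt8, Krt18 and Krt7). They were chosen by name, with earlier results of these data known, so their counts beside all genes are no independent evidence. The array held a probe set with a single annotated symbol for all 10, among 18784 genes in all. RNA was measured on 12 Affymetrix mouse gene arrays in 4 groups of 3 arrays. The groups were neural progenitor cells (NPC) carrying an shRNA against Jarid1b, NPC carrying a scrambled shRNA, embryonic stem cells (ESC) carrying the Jarid1b shRNA, and ESC carrying the scrambled shRNA. All cells came from E14TG2a.4, a feeder-independent mouse ESC line grown with LIF, and all had been transduced with lentivirus, with puromycin selection described for the ESC. The labels name 1 Jarid1b shRNA and give no origin of the 3 arrays of a group, such as independent cultures or transductions. The p-values therefore rest on array-to-array spread alone, which may be technical.

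In the mouse blastocyst, Tead4 with its coactivator Yap switches on Cdx2 in the outer cells, and Cdx2 in turn restrains the pluripotency programme there. Eomes, Elf5 and Tfap2c then hold trophoblast stem cells in their state, Ascl2 is needed for the spongiotrophoblast, and Hand1 drives the formation of trophoblast giant cells. Keratin 8 pairs with keratin 18 to build the first intermediate filaments of the embryo, which mark the trophectoderm and simple epithelia, and keratin 7 is a further type II keratin of such epithelia. Jarid1b, listed under its current symbol Kdm5b, demethylates histone H3 at lysine 4.

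The 2 cell states and the knockdown were checked first. All 14 pluripotent cell markers measured were lower in NPC, and all 12 neural progenitor markers were higher in NPC, in knockdown as in control cells. Kdm5b lay between 10.38 and 10.54 on the log2 scale in knockdown NPC, against 11.15 to 11.30 in control NPC. In ESC it lay between 10.50 and 10.90 in knockdown cells, against 12.25 to 12.50 in control cells. The difference was -0.76 ± 0.11 (limma's standard error, SE) in NPC and -1.72 ± 0.11 in ESC, with limma adjusted p-values of 0.00524 and 1.82e-05. A gene is said below to have risen or fallen where limma's p-value, adjusted over all 18784 genes by Benjamini-Hochberg, is under 0.05. Levels are deposited log2 expression values, and a difference of 1 is a doubling. Array medians lay between 7.70 and 7.79, lower quartiles between 5.84 and 6.11, and upper quartiles between 9.52 and 9.66. Without detection calls in the files, low expression near the lower quartile and silence cannot be told apart.

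The promoters of Krt18 and Cdx2 are shown because both genes were called in knockdown ESC, and those of Krt8 and Krt7 to set the other keratins beside Krt18. AP-2 factors, the family of Tfap2c, bind the palindrome GCCNNNGGC. Each line gives the 250 bases before the annotated start, 5′ to 3′ on the gene's own strand, from the RefSeq promoter table of GRCm38.p6, with that palindrome in capitals. Krt18 is read from chr15:102027966-102028215 (plus strand), Krt8 from chr15:102004343-102004592 (minus strand), Krt7 from chr15:101412153-101412402 (plus strand) and Cdx2 from chr5:147307250-147307499 (minus strand).
Krt18: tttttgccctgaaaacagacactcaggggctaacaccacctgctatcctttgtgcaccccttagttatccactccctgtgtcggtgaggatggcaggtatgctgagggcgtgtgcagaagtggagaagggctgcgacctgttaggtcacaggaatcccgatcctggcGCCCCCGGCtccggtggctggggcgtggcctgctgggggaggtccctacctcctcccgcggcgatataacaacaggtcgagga
Krt8: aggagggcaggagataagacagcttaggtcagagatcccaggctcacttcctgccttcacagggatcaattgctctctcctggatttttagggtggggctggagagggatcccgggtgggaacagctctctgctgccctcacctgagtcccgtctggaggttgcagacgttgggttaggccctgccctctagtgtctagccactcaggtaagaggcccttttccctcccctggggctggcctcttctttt
Krt7: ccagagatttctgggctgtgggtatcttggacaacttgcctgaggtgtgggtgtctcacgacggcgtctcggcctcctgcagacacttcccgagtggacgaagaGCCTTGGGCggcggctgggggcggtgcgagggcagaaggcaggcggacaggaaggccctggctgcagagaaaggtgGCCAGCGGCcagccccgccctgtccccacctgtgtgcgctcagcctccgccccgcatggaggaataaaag
Cdx2: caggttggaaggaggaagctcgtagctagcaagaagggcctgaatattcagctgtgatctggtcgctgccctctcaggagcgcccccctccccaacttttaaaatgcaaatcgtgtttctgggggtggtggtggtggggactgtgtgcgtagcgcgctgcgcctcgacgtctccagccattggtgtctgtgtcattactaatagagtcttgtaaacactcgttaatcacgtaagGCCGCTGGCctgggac
The palindrome lies at -83 to -75 from the start of Krt18, at -146 to -138 and -70 to -62 in Krt7, and at -16 to -8 in Cdx2, and the Krt8 window does not hold it. Of the 10 genes, 7 were matched in the table, with 8 promoters, since Elf5 has 2. The palindrome occurs in 3 of these 8 promoters and in 13.7% of all 32851 promoters in the table. The other 4 motifs were searched on both strands. The TEAD motif GGAATG occurs in 1 of the 8 promoters and in 12.6% of all promoters, and the T-box motif GGTGTGA in 1 of the 8 and in 3.33% of all; both matches are in Elf5 promoters. The CDX motif TTTATNG and the TATA motif TATAAA, which can share letters, occur in 0 of the 8 promoters and in 9.81% and 12.4% of all promoters. A match describes these letters and is not a measured binding site. Krt8 and Krt18 are neighbours on chromosome 15, on opposite strands, with their starts 23.9 kb apart and 0 protein-coding genes starting between them.

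In knockdown ESC, Krt18 and Cdx2 fell. These were 2 of the 10 genes, against 5.21% of all genes called in that comparison, of which 1.84% rose and 3.37% fell. The median difference of the 10 genes was -0.20, and that of all genes was 0.02. Groups did not overlap for 3 of the 10 genes that were lower in knockdown ESC (Krt18, Cdx2 and Eomes) and for 1 that was higher (Tead4), against 13.6% and 10.6% of all genes.

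Krt18, the type I keratin of the pair, had levels of 8.77, 7.92 and 7.95 in knockdown ESC, against 10.97, 8.86 and 9.91 in control ESC. The highest knockdown array lay just under the lowest control array, so the groups did not overlap. The difference was -1.70 ± 0.39 (SE, n = 3 arrays a group), a 3.25-fold lower level in knockdown ESC, with a limma adjusted p of 0.0269. In a bulk sample, fewer cells of a type and less RNA per cell cannot be told apart. Krt8, its type II partner, had levels of 9.95, 9.06 and 8.60 in knockdown ESC, against 11.63, 9.71 and 10.69 in control ESC. Replicate 1 of the knockdown lay above replicate 2 of the control, so these groups overlapped. The level was 2.78-fold lower in knockdown ESC, with a 95% confidence interval of the log2 difference from -2.38 to -0.57 and a limma adjusted p of 0.061, which did not pass. Krt7 had levels of 7.50, 7.37 and 7.28 in knockdown ESC, against 7.85, 7.18 and 7.08 in control ESC. The difference of Krt7 was 0.01, with an interval from -0.36 to 0.39.

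The spread within ESC was wide for Krt8 and Krt18, most of all in control ESC. Krt18 ranged over 2.12 log2 units across the 3 control ESC arrays, and 6 of 18784 genes had a larger range in that group. Krt8 ranged over 1.93 units, with 12 genes above it. In knockdown ESC, Krt8 ranged over 1.35 units, with 22 genes above it, and Krt18 over 0.84 units, with 166 genes above it. Control replicate 1 was the highest of its group for 8 of the 10 genes, all but Eomes and Ascl2, and control replicate 2 was the lowest for Krt8, Krt18 and Cdx2. The Krt18 call did not hold when control ESC replicate 3 was left out (adjusted p = 0.109), without knockdown ESC replicate 2 (0.0975) or 3 (0.111), and when the ESC arrays were fitted alone (0.0857). Krt8 passed in 4 of 14 alternative fits (lowest limma adjusted p 0.0165), among them those without control replicate 2 (0.0188) or without knockdown replicate 1 (0.0363).

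**Figure D1:**
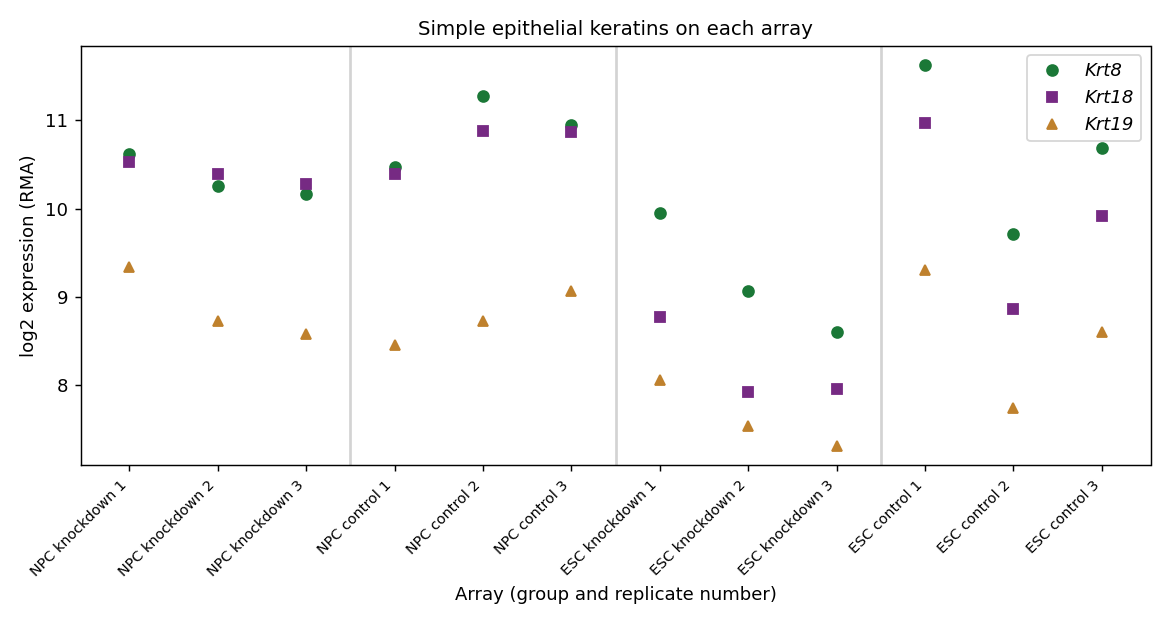
Log2 expression (y axis) of Krt8, Krt18 and Krt19 on each of the 12 arrays (x axis), by group and replicate number. In control ESC, Krt8 spans 9.71 to 11.63 and Krt18 spans 8.86 to 10.97, and replicate 1 is the highest for all 3 keratins.

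The plot of the keratins on each array also shows Krt19, a type I keratin of simple epithelia that is not among the 10 genes. Krt19 had levels of 8.05, 7.53 and 7.30 in knockdown ESC, against 9.30, 7.73 and 8.60 in control ESC. These groups overlapped, and the difference of -0.91 ± 0.33 had a limma adjusted p of 0.141. Of 39 other keratins measured, Krt19 included, 0 rose and 0 fell in knockdown ESC by limma. An unadjusted p under 0.05 was found for 3 of the 39, beside 19.2% of all genes. They were Krt19, which was lower, and Krt17 (0.45) and Krt42 (0.42), which were higher in knockdown ESC. The list's median difference was 0.12. Most of the 39 are expressed in stratified epithelia or hair, and between 13 and 15 of the 39 lay below the lower quartile on all arrays of a group.

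Cdx2, the caudal-type homeobox factor that specifies the trophectoderm, had levels of 6.89, 7.12 and 6.84 in knockdown ESC, against 7.94, 7.21 and 7.77 in control ESC. All 3 knockdown arrays lay below the control arrays, although the second control array came within 0.1 of the highest knockdown array. The difference was -0.69 ± 0.16 (interval -1.03 to -0.35), a 1.61-fold lower level in knockdown ESC, with a limma adjusted p of 0.0247. These levels lay near or below the array medians. It no longer passed when control ESC replicate 3 was left out (0.128), without knockdown ESC replicate 1 (0.0762) or 3 (0.107), and with the ESC arrays fitted alone (0.0771).

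Eomes, the T-box factor that acts with Cdx2 in trophoblast stem cells and is also known from early mesoderm and endoderm, had levels of 7.81, 7.52 and 7.47 in knockdown ESC, against 7.91, 8.23 and 8.81 in control ESC. The knockdown arrays lay below all control arrays. The difference of -0.72 ± 0.21 had a limma adjusted p of 0.0631 and did not pass. It passed in 3 of 14 alternative fits (lowest 0.00688), among them the fit without control ESC replicate 1 (0.0172). Tead4, the DNA-binding partner of Yap, had levels of 9.48, 9.38 and 9.34 in knockdown ESC, against 9.31, 9.19 and 8.84 in control ESC. The groups did not overlap, with knockdown higher, and the difference of 0.29 (interval 0.02 to 0.56) had an adjusted p of 0.222. With array weights, which gave control ESC replicate 1 the lowest weight of the 12 arrays, Tead4 passed (0.40, adjusted p = 0.0273).

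The remaining factors did not pass in ESC. Tfap2c, an AP-2 factor shared by trophoblast and germ cells, had levels of 10.76, 10.31 and 9.86 in knockdown ESC, against 10.53, 10.45 and 10.44 in control ESC. The 2 groups overlapped, and the interval of the difference ran from -0.83 to 0.50. Ascl2, an imprinted basic helix-loop-helix factor, had levels of 7.20, 7.42 and 7.56 in knockdown ESC, against 7.50, 7.57 and 7.82 in control ESC, with an interval from -0.57 to 0.10. Hand1, a basic helix-loop-helix factor of giant cells, had levels of 7.41, 7.45 and 7.38 in knockdown ESC, against 8.08, 7.32 and 7.22 in control ESC. The knockdown arrays lay inside the control range, and the interval ran from -0.50 to 0.24. Elf5, an ETS factor that reinforces Cdx2 and Eomes, had levels of 5.89, 5.99 and 5.82 in knockdown ESC, against 5.89, 5.66 and 5.72 in control ESC. It lay below the array's lower quartile on 11 of the 12 arrays, so a fall from these levels could hardly be measured.

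**Figure D2:**
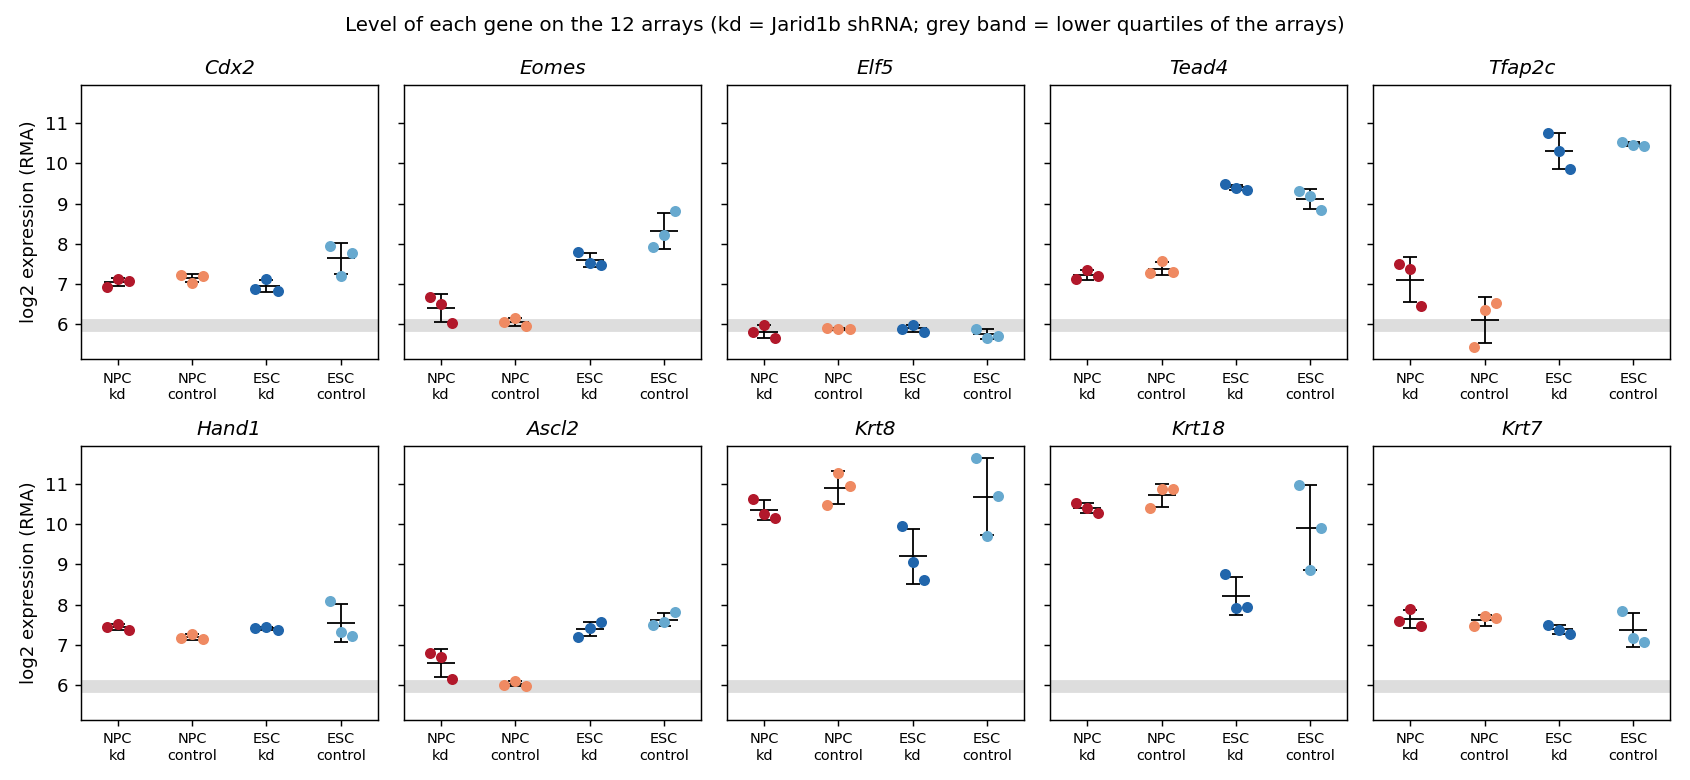
Log2 expression (y axis) of the 10 genes in NPC knockdown, NPC control, ESC knockdown and ESC control cells (x axis), 3 arrays a group as points, with the mean and SD as bars and the range of the array lower quartiles as a grey band. Tfap2c, Tead4, Eomes and Ascl2 are lower in NPC than in ESC, and Elf5 lies at or near the grey band throughout.

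In NPC, 0 of the 10 genes rose or fell with knockdown, against 1.03% of all genes called by limma, of which 0.820% rose and 0.213% fell. At an unadjusted p under 0.05, 2 of the 10 genes passed, Ascl2 and Tfap2c, both higher in knockdown NPC, beside 9.52% of all genes. Groups did not overlap for 2 genes that were higher in knockdown NPC (Ascl2 and Hand1) and for 0 that were lower, against 8.30% and 5.91% of all genes. The median difference of the 10 genes was -0.02.

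Ascl2 had levels of 6.79, 6.71 and 6.16 in knockdown NPC, against 6.01, 6.10 and 5.99 in control NPC. All knockdown arrays were higher, the third by little. The difference was 0.52 ± 0.15 (interval 0.19 to 0.85), with a limma adjusted p of 0.169, and it passed without knockdown NPC replicate 3, where it was 0.72 with an adjusted p of 0.0197. Tfap2c had levels of 7.49, 7.38 and 6.46 in knockdown NPC, against 5.45, 6.37 and 6.52 in control NPC. The third arrays of the 2 groups were close, so the groups overlapped, and the first control array lay below its lower quartile. The interval of the difference ran from 0.33 to 1.66, with a limma adjusted p of 0.196. Eomes had levels of 6.69, 6.50 and 6.03 in knockdown NPC, against 6.06, 6.15 and 5.97 in control NPC, and its interval ran from -0.10 to 0.79. For all 3 genes, replicates 1 and 2 of the knockdown were above replicate 3.

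Pluripotent cell markers were also higher on replicates 1 and 2 than on replicate 3 of the knockdown NPC arrays. The summed linear level of the 14 markers was 9499, 9652 and 6707 in knockdown NPC, against 5460, 6789 and 5819 in control NPC. Of the 14 markers, 6 rose and 0 fell in knockdown NPC, led by Dppa5a, Dnmt3l (2.21) and Utf1 (1.44). In ESC the same sum was 80180 to 81831 with knockdown and 75904 to 77793 in control cells. There 0 of the 14 markers rose or fell by limma, 0 had an unadjusted p under 0.05, and their median difference was 0.09. The control NPC arrays were not in the same order for the markers as for the 3 genes. The part of these markers in the levels of Ascl2, Tfap2c and Eomes was not tested.

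Hand1 had levels of 7.44, 7.53 and 7.36 in knockdown NPC, against 7.17, 7.27 and 7.15 in control NPC. The groups did not overlap, and the difference of 0.25 ± 0.17 had a limma adjusted p of 0.788. Krt8 had levels of 10.62, 10.26 and 10.16 in knockdown NPC, against 10.47, 11.28 and 10.95 in control NPC, and Krt18 had 10.53, 10.39 and 10.28 in knockdown NPC, against 10.39, 10.88 and 10.87 in control NPC. Both keratins overlapped between the groups. Their intervals ran from -1.46 to 0.35 and from -1.17 to 0.54. Cdx2, Tead4, Krt7 and Elf5 differed by -0.11, -0.16, 0.03 and -0.08 in NPC, with limma adjusted p-values between 0.835 and 0.989.

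**Figure D3:**
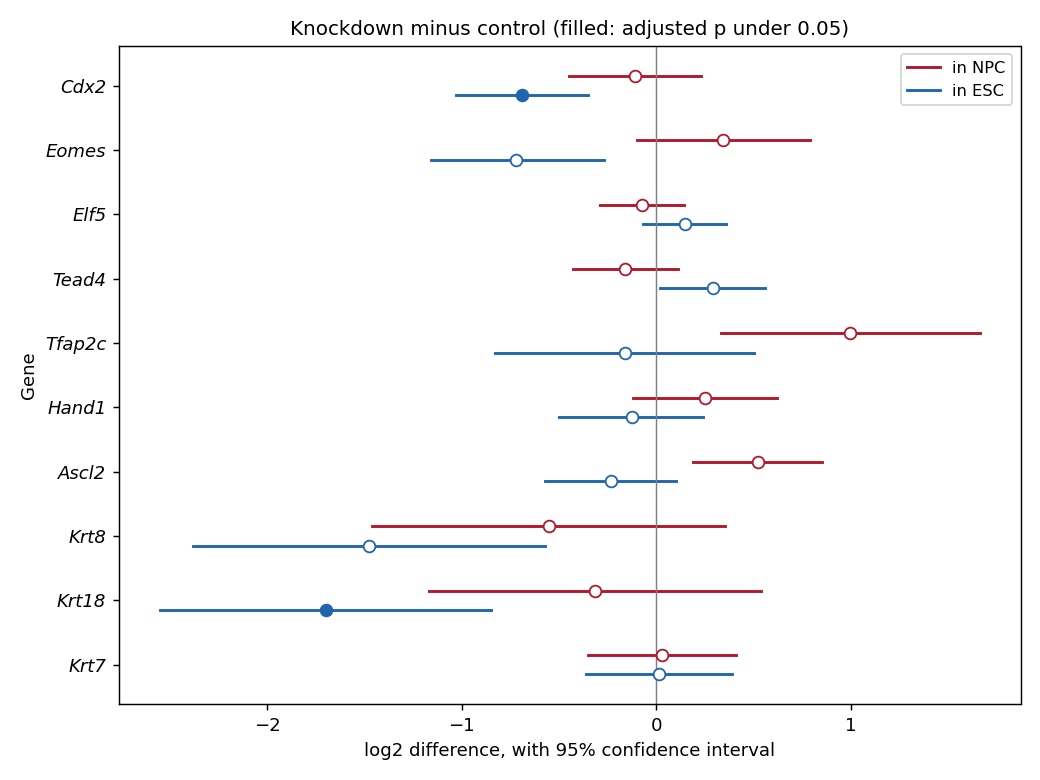
Log2 difference, knockdown minus control (x axis, bars for 95% confidence intervals), of each gene (y axis) in NPC and in ESC, 3 arrays a group, with filled points where the limma adjusted p is under 0.05. Filled points are those of Cdx2 (-0.69) and Krt18 (-1.70) in ESC, and 0 points are filled in NPC.

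The plot of knockdown differences sets NPC beside ESC, and the difference between the 2 effects was tested directly. It passed for 0 of the 10 genes by limma, against 1.42% of all genes (1.18% higher and 0.245% lower in NPC), and 6 of the 10 had an unadjusted p under 0.05, as did 15.3% of all genes. The effect of knockdown in NPC minus that in ESC was 1.06 ± 0.29 for Eomes (adjusted p = 0.0971), 0.76 ± 0.22 for Ascl2 (0.111) and 1.16 ± 0.43 for Tfap2c (0.221). It was 0.58 ± 0.22 for Cdx2 (0.232), -0.45 ± 0.18 for Tead4 (0.244) and 1.39 ± 0.56 for Krt18 (0.256). The call of Cdx2 and Krt18 in ESC and its absence in NPC thus does not show that the effects differed. The median of the 10 genes was 0.67, beside -0.01 for all genes. The difference passed for Eomes without control ESC replicate 1 (1.27, adjusted p = 0.0305), for Cdx2 without control ESC replicate 2 (0.79, 0.0417) and for Ascl2 without knockdown NPC replicate 3 (0.95, 0.0274).

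NPC and ESC differed in 6 of the 10 genes in knockdown cells, of which 2 were higher and 4 lower in NPC, and in 5 in control cells, all lower in NPC. Of all genes, 48.8% were called in knockdown cells (23.8% higher and 25.0% lower in NPC) and 48.6% in control cells (23.5% higher and 25.1% lower). The share of the 10 genes called is thus close to that of all genes. These comparisons share their arrays with the knockdown comparisons above.

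Tfap2c had the largest difference of the 10 genes. It averaged 6.11 ± 0.58 in control NPC and 10.47 ± 0.047 in control ESC (SD, n = 3 arrays each), with no overlap. It was 9.20-fold lower in knockdown NPC than in knockdown ESC (limma adjusted p = 1.37e-06) and 20.5-fold lower in control NPC than in control ESC (6.82e-08). Tead4 averaged 7.39 ± 0.16 in control NPC and 9.11 ± 0.24 in control ESC. It was 4.52-fold lower in NPC in knockdown cells and 3.31-fold lower in control cells (limma adjusted p = 1.1e-08 and 8.81e-08). Eomes averaged 6.06 ± 0.091 in control NPC and 8.32 ± 0.45 in control ESC, and it was 2.29-fold lower in NPC in knockdown cells and 4.78-fold lower in control cells (0.000269 and 7.77e-07). Ascl2 averaged 6.03 ± 0.059 in control NPC and 7.63 ± 0.17 in control ESC, and it was 1.79-fold lower in NPC in knockdown cells and 3.02-fold lower in control cells (0.000454 and 1.33e-06). For these 4 factors every NPC array lay below every ESC array of the same shRNA. Of all genes, 33.9% were lower and 28.5% higher in knockdown NPC than in knockdown ESC without overlap, and 27.8% lower and 24.5% higher in control NPC than in control ESC.

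Cdx2 was called lower in NPC in control cells, at -0.49 ± 0.16 (limma adjusted p = 0.0194), although its control groups touched at 7.22 in NPC and 7.21 in ESC. Cdx2 no longer passed when control ESC replicate 1 (0.0918) or 3 (0.0728) was left out, without control NPC replicate 2 (0.0673), and with the 6 control arrays fitted alone (0.0579). In knockdown cells Cdx2 differed by 0.09 between NPC and ESC, with an interval from -0.25 to 0.43. Hand1 and Elf5 passed in neither shRNA group, with adjusted p-values from 0.117 to 0.89, but Hand1 passed in control cells without control ESC replicate 3 (-0.51, adjusted p = 0.0269).

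The keratin pair differed between NPC and ESC in knockdown cells. Krt18 averaged 10.40 ± 0.13 in knockdown NPC and 8.21 ± 0.48 in knockdown ESC, a 4.55-fold higher level in NPC (difference 2.19 ± 0.39, limma adjusted p = 0.000391). Krt8 averaged 10.35 ± 0.24 in knockdown NPC and 9.20 ± 0.69 in knockdown ESC, 2.21-fold higher in NPC, with an adjusted p of 0.0364. Neither keratin overlapped between these groups. The Krt8 call was lost without knockdown ESC replicate 2 (0.0986) or 3 (0.149), without knockdown NPC replicate 1 (0.112), 2 (0.0649) or 3 (0.055), after a further quantile normalization (0.0522) and with an intensity trend and robust prior (0.063).

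In control cells, Krt18 averaged 10.71 ± 0.28 in NPC and 9.91 ± 1.1 in ESC, and Krt8 averaged 10.90 ± 0.41 in NPC and 10.68 ± 0.96 in ESC. Neither passed, with intervals from -0.05 to 1.65 for Krt18 and from -0.68 to 1.12 for Krt8. Without control ESC replicate 1, Krt18 passed (1.33, adjusted p = 0.00266). Krt7, with means between 7.37 and 7.64 in the 4 groups, differed by 0.26 in knockdown and 0.24 in control cells and passed in neither, except without control ESC replicate 1 in control cells (0.48, 0.00788).

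**Figure D4:**
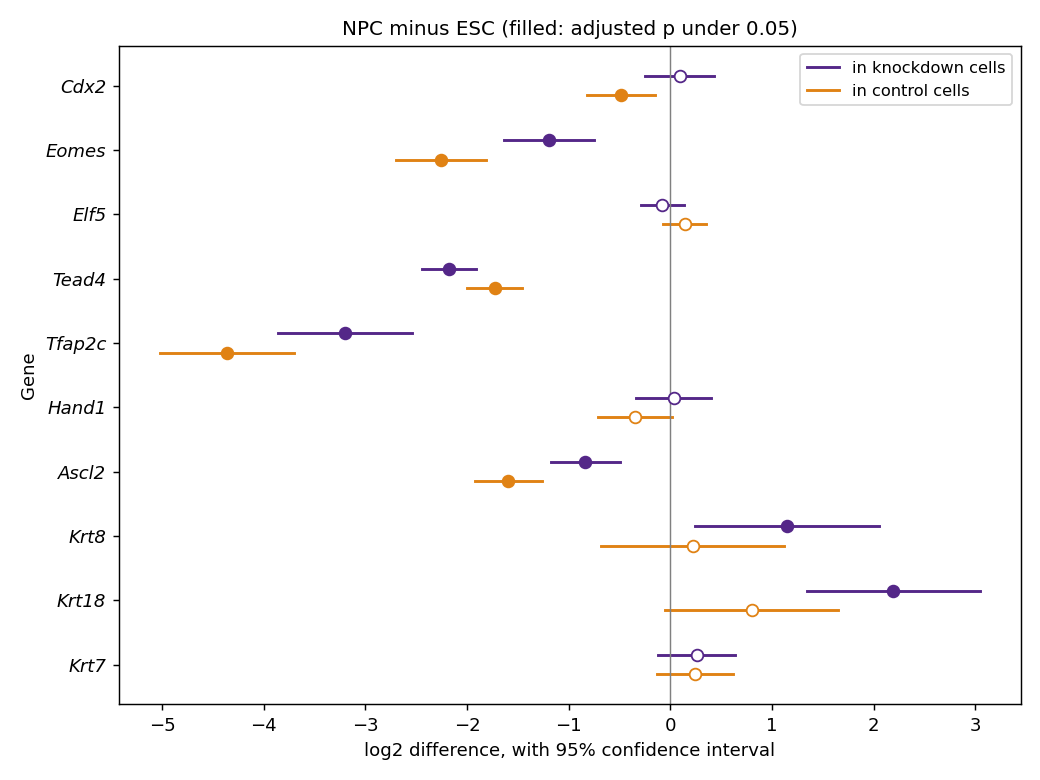
Log2 difference, NPC minus ESC (x axis, bars for 95% confidence intervals), of each gene (y axis) in knockdown and in control cells, 3 arrays a group, with filled points where the limma adjusted p is under 0.05. Tfap2c is the lowest in both (-3.20 in knockdown and -4.36 in control cells), and the filled points above 0 are Krt18 and Krt8 in knockdown cells.

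The plot of NPC against ESC differences shows Tfap2c and Tead4 lower in NPC. The paralogs examined, Tfap2a for Tfap2c and Tead1, Tead2 and Tead3 for Tead4, were not lower in NPC. Tfap2a, the AP-2 factor of neural crest and surface ectoderm, had levels of 9.88, 9.95 and 9.86 in control NPC, against 7.34, 7.71 and 8.05 in control ESC. Every NPC array was higher. The difference was 2.69 ± 0.18 in knockdown cells (limma adjusted p = 4.05e-08) and 2.20 ± 0.18 in control cells (2.52e-07). In ESC, Tfap2a had levels of 6.61, 7.11 and 6.92 with knockdown, against 7.34, 7.71 and 8.05 in control cells. It fell by 0.82 ± 0.18 (adjusted p = 0.0201), a call lost without control ESC replicate 2 or 3 or knockdown ESC replicate 1 or 3 (highest adjusted p 0.107). Tfap2c did not pass in that comparison.

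Of the other TEAD factors, which bind the same DNA motif as Tead4, Tead2 and Tead3 were higher in NPC in both shRNA groups. Tead2 differed by 0.72 in knockdown and 0.80 in control cells, and Tead3 by 0.70 and 0.78, with limma adjusted p-values from 2.48e-06 to 0.000321. Tead1 did not pass in knockdown cells (0.09, limma adjusted p = 0.561) and was higher in NPC in control cells (0.43, 0.00659). With knockdown, 0 of these 3 passed limma's test in ESC or NPC. Only Tead1 in ESC had an unadjusted p under 0.05 among them (difference 0.28, limma adjusted p = 0.197).

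**Figure D5:**
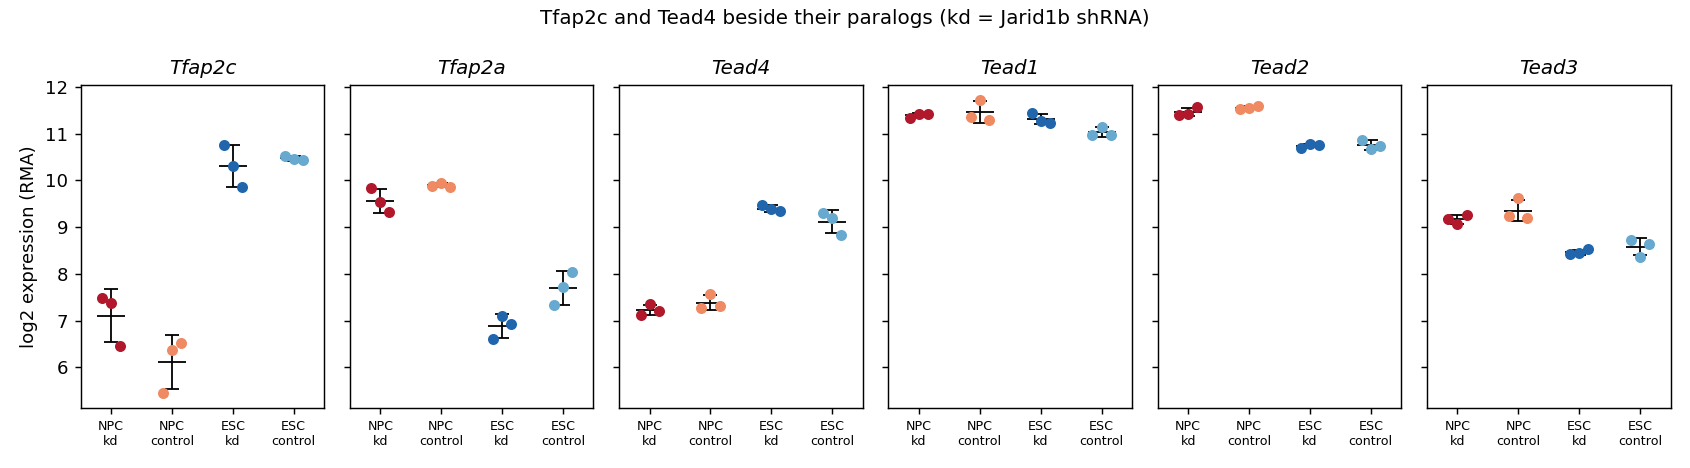
Log2 expression (y axis) of Tfap2c, Tfap2a, Tead4, Tead1, Tead2 and Tead3 in NPC knockdown, NPC control, ESC knockdown and ESC control cells (x axis), 3 arrays a group as points with the mean and SD as bars. Tfap2c and Tead4 are lower in NPC than in ESC (-4.36 and -1.73 in control cells), while Tfap2a is higher (2.20).

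Genes with related roles give the setting. Of 26 other trophoblast and placenta genes, 1 rose and 1 fell in knockdown ESC. The riser was Ets2, an ETS factor of trophoblast stem cells (0.58 ± 0.12, limma adjusted p = 0.0192, lost without control ESC replicate 2 or 3 or knockdown ESC replicate 2 or 3, highest 0.0915), and Tfap2a fell. The list's median was 0.00, beside 0.02 for all genes. In knockdown NPC, 2 rose and 0 fell: Dlx3, a homeobox factor of the placenta (0.72 ± 0.098, adjusted p = 0.00409), and Esrrb, a nuclear receptor shared by trophoblast stem cells and ESC (0.64 ± 0.11, 0.0119). The Dlx3 call held when each array was left out, and the Esrrb call was lost without control NPC replicate 2 or knockdown NPC replicate 1 or 2 (highest 0.0707). Between NPC and ESC, 7 rose and 7 fell in control cells, with a list median of 0.08. Esrrb was 44.6-fold, Sox15 11.2-fold and Lgals3 7.74-fold lower in control NPC, and Fgfr2 5.73-fold, Tfap2a 4.58-fold and Gata3 3.23-fold higher. Of all genes, 23.5% were called higher and 25.1% lower in control NPC.

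Of 33 epithelial junction and adhesion genes, 9 fell and 0 rose in knockdown ESC, with a median of -0.20. They included Grhl2, a regulator of epithelial genes (-1.37 ± 0.26, limma adjusted p = 0.011), Perp, a desmosome component (-1.22 ± 0.18, 0.00383), Esrp1, an epithelial splicing factor (-1.0 ± 0.25, 0.0374), and the tight junction gene Cldn6 (-0.96 ± 0.16, 0.00747). Of all genes, 3.37% fell and 1.84% rose in knockdown ESC. In the list, Cdh1 (0.12), Jup (0.13), Spint1 (0.33) and Grhl3 (0.355) were higher there without overlap, and these did not pass. The summed linear level of the 33 genes was 34870 to 38024 in knockdown ESC, against 39784 to 42507 in control ESC, without overlap. Left-out arrays gave 2 to 8 genes that fell, with the lowest count without control ESC replicate 3. The Grhl2 call was lost without replicate 3 of either ESC group (highest adjusted p 0.0658), and the Esrp1 call without replicate 2 or 3 of either (highest 0.164). The part of these genes in the keratin levels was not tested. In knockdown NPC, 0 of the 33 rose or fell by limma, and 9 had an unadjusted p under 0.05, as did 9.52% of all genes. Of these 9, Itga6 (-0.385) and Jup (-0.347) were lower in knockdown NPC, and the others were higher. Between NPC and ESC, 23 fell and 2 rose in control cells, with Cdh1, the E-cadherin gene, at -2.53 in NPC relative to ESC, whereas Krt8 and Krt18 passed in neither direction there.

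Of 20 genes of the TEAD and Hippo pathway, which controls Yap and Tead4, 4 fell and 0 rose in knockdown ESC. Vgll3, a TEAD cofactor (-0.84 ± 0.15, limma adjusted p = 0.00976), and Amot, an angiomotin that holds Yap outside the nucleus (-0.60 ± 0.13, 0.0243), were among them, with Amotl2 and the kinase gene Lats2 (-0.41 ± 0.11, 0.0456, lost when any of the 6 ESC arrays was left out). The count was 1 to 3 with left-out arrays, lowest without control ESC replicate 3. The Vgll3 call was lost without replicate 3 of either ESC group (highest adjusted p 0.0591), and the Amot call without replicate 2 or 3 of either (0.134). In knockdown NPC, 0 rose or fell by limma, with 1 at an unadjusted p under 0.05, and 13 rose and 3 fell in control NPC relative to control ESC, led by the kinase genes Lats2 (2.46 ± 0.11) and Lats1 (2.37 ± 0.084). Among the 39 other keratins, 1 rose and 17 fell in knockdown NPC relative to knockdown ESC, with Krt17 at -2.28 and Krt19 at 1.25 ± 0.33 (adjusted p = 0.00671). That count of 17 was 6 to 16 with left-out arrays, lowest without knockdown ESC replicate 2. Apart from Krt17 and Krt42 (-1.26), the differences of the keratins that fell lay between -0.609 and -0.275. In knockdown NPC, 15 of the 39 lay below the lower quartile on all arrays. Of all genes, 25.0% were called lower and 23.8% higher in knockdown NPC than in knockdown ESC.

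Genes with a pattern like those of Krt8 and Krt18 were ranked by the root mean square difference of centred log2 levels over the 12 arrays, among 3406 genes with an SD of at least 0.5. For Krt8 the closest were Flnc, an actin cross-linker (0.371), Cnn2, a calponin (0.372), and Krt19 (0.381), where the median of all candidates was 1.13. For Krt18 they were Tgfb2, a growth factor (0.406), Prtg (0.469) and Capn2, a calpain protease (0.477), again with a median of 1.13. For Cdx2, whose own SD over the 12 arrays was 0.33, the ranking is not given, since the minimum SD leaves out genes that vary as little. Krt8 and Krt18 lay 0.45 from each other, with 6 genes closer to Krt8 than Krt18 was and 1 gene closer to Krt18 than Krt8 was.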

How the data were processed

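Total RNA was labelled and hybridised to 12 Affymetrix mouse gene arrays, 3 a group. The deposited values are log2 expression, 1 value per probe set and array. The authors used affy, RMA and limma, per the submitters' processing notes, and their versions are not stated there. RMA subtracts background, makes the arrays' quantiles equal and combines the probes of a set, so differences close to the floor come out smaller. ESC were transduced for 16 h and selected from 48 h, and NPC were derived by a published protocol, per the labels' protocols.

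Of 21212 probe sets, 18786 had 1 gene symbol, 6 had several and 2420 were unnamed. The probe set with the highest mean stood for a gene, giving 18784 genes, of which 18773 matched RefSeq (GRCm38.p6) by Entrez number with 0 symbols differing. With limma 3.58.1 under R 4.3.3, a model of the 4 group means used every array (lmFit, contrasts.fit, then eBayes with defaults), with 8 residual and 4.81 prior degrees of freedom. The 5 contrasts set knockdown against control in each state, compared those effects, and set NPC against ESC for each shRNA. All tests were two-sided, with Benjamini-Hochberg adjustment over all genes at 0.05.

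Named genes were the 10 members, Kdm5b, Krt19, and the paralogs Tfap2a, Tead1, Tead2 and Tead3. Up to 3 called genes of each list by size of difference were added, as were the closest genes in pattern to Krt8 and to Krt18. Of the 5 ranked for each keratin, the first 3 are named. Krt17, Krt42, Cldn6, Lats2, Cdh1, Jup, Spint1 and Grhl3 in the ESC knockdown comparison, and Klf2, were named after their values were seen. So were Fgfr2 and Gata3 in control NPC against control ESC, and Itga6 and Jup in the NPC knockdown comparison. The members and the 10 gene lists (223 entries, 208 measured) were chosen with earlier results of these data known, so they are no independent evidence. The lists were other trophoblast and placenta genes, other keratins, epithelial junction genes, other intermediate filament genes, TEAD and Hippo genes, and markers of endoderm, mesoderm, pluripotent cells, neural progenitors and surface ectoderm.

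Within a group, arrays correlated at 0.992 to 0.997, and at most 0.330% of values were identical between 2 arrays, so all were kept as separate samples. The titles give the replicate numbers. Control NPC and control ESC arrays of 1 number deviated together from their group means (correlations of 0.266, 0.286 and 0.334). Arrays of unlike number were not compared, and the labels do not say what the numbers mark, so a pairing is possible but not settled. The model itself has no block, and the blocked fit is an alternative. In the other contrasts at least 1 pair was under 0.1. As alternatives, low genes were filtered (13149 left), arrays were weighted, median-centred or quantile-normalized again, and the replicate number was used as a block. Others used an intensity trend with robust prior, a contrast's arrays alone, probe set means, or left out each array. A block on the 6 control arrays, and left-out arrays for the lists, were chosen after seeing the data. The steps were tested on simulated data with 200 genes changed by 1 log2 unit in each comparison. Comparisons of 2 groups recovered 92.5% to 95% of these, and the difference of the knockdown effects recovered 71.5%. The number of arrays limits the precision.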

Additional observations from a re-analysis of the deposited data

Results flagged for a closer look

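The difference between the knockdown effects in NPC and in ESC passed limma's test for 0 of the 10 genes, for Kdm5b and for 15 genes of the lists. For Perp, a desmosome gene, the effect in NPC minus that in ESC was 1.90 ± 0.25 (SE; limma adjusted p = 0.00736), with 0.68 in NPC and -1.22 in ESC, and it passed when each of the 12 arrays was left out. For Ovol1, an epithelial zinc finger gene, it was 1.25 ± 0.20 (0.0172), with 0.69 in NPC and -0.56 in ESC, and it was lost without control ESC replicate 3 or knockdown NPC replicate 2 (highest adjusted p 0.0584). The separate Ovol1 calls passed in 1 of 6 left-out fits in ESC and in 0 of 6 in NPC. For Cldn6 it was 1.15 ± 0.23 (0.0367), with 0.19 in NPC and -0.96 in ESC, and it passed in 4 of 12 left-out fits. For Kdm5b, the targeted gene, it was 0.96 ± 0.16 (0.0172), with -0.76 in NPC and -1.72 in ESC, and it was lost without control ESC replicate 3 or knockdown NPC replicate 2 (0.0591). For Dlx3 it was 0.73 ± 0.14 (0.0314), with 0.72 in NPC and 0.00 in ESC, and it passed in 6 of 12 left-out fits. For Amotl2, an angiomotin-like gene, it was 0.69 ± 0.15 (0.0437), with 0.10 in NPC and -0.58 in ESC, and it passed in 2 of 12. For Spint2, a protease inhibitor of epithelia, it was 0.60 ± 0.13 (0.0416), with 0.38 in NPC and -0.22 in ESC, and it passed in 1 of 12.

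Of the other lists, pluripotent cell markers differed as follows. The difference was 2.33 ± 0.33 for Dnmt3l (limma adjusted p = 0.0092), with 2.21 in NPC and -0.11 in ESC. It was 2.38 ± 0.52 for Dppa5a (0.0443), 1.37 ± 0.30 for Utf1 (0.0437) and 0.99 ± 0.15 for Klf2 (0.0151). Their effects were 2.43, 1.44 and 0.98 in NPC, against 0.05, 0.07 and -0.01 in ESC. Among endoderm markers it was 1.36 ± 0.18 for Lrp2 (0.00682), -0.97 ± 0.21 for Lama1 (0.0437) and 0.52 ± 0.11 for Cited2 (0.0414), with 0.41, -0.12 and 0.09 in NPC, against -0.95, 0.86 and -0.43 in ESC. It was 0.91 ± 0.12 for the mesoderm marker Tcf15 (0.00738) and 0.87 ± 0.16 for Cdh2 (0.0239), with 0.32 and -0.12 in NPC, against -0.59 and -0.99 in ESC. Dnmt3l, Lrp2 and Tcf15 passed in all 12 left-out fits, Klf2 in 11, Cdh2 in 9, Utf1 in 3, Dppa5a and Lama1 in 2, and Cited2 in 1.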

How the results depend on the processing

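The number of the 10 genes called in knockdown ESC was 2, and it became 4 with the filter on low values, 5 with array weights and 0 with the ESC arrays alone, with 0 to 3 when arrays were left out. All genes called there numbered 979, against 2887 with array weights, 500 with the ESC arrays alone and 193 to 1536 with left-out arrays (lowest without control ESC replicate 3). Array weights ranged from 0.39 for control ESC replicate 1 to 2.18 for knockdown NPC replicate 3. In knockdown NPC, all genes called numbered 194, against 29 with the NPC arrays alone and 83 to 220 with left-out arrays, with 0 to 1 of the 10. For the difference of the effects, 267 genes were called, against 955 with array weights (1 of the 10, Eomes, 1.21, adjusted p = 0.0302) and 35 to 546 with left-out arrays, with 0 to 1 of the 10. Between NPC and ESC, 5 to 6 of the 10 genes and 8103 to 8497 of all genes were called in knockdown cells with left-out arrays, and 4 to 6 of the 10 and 8446 to 8965 of all in control cells. The cause of these shifts was not tested.

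With the replicate number as a block, 0, 2, 0, 6 and 5 of the 10 genes were called in knockdown NPC, knockdown ESC, the difference, and NPC against ESC in knockdown and in control cells, as without it. The block moved the count of all genes called for the difference to 152 and changed no other count by over 1.5 times. In the 6 control arrays alone with the block, 5 of the 10 were called.

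Directions turned for differences that were not called. With array weights, Hand1 in knockdown ESC came to 0.059 and the Krt7 difference of effects to -0.117. With median centring, that Krt7 difference came to -0.025 and Hand1 in knockdown NPC against knockdown ESC to -0.016. With quantile normalization, Krt7 in knockdown ESC came to -0.019 and Elf5 in knockdown NPC against knockdown ESC to 0.024. With left-out arrays, knockdown ESC gave -0.29 to 0.143 for Hand1, -0.389 to 0.064 for Tfap2c and -0.128 to 0.253 for Krt7. Knockdown NPC gave -0.089 to 0.121 for Krt7 and -0.156 to 0.005 for Elf5. The Krt7 difference ran from -0.223 to 0.158, Krt8 in control NPC against control ESC from -0.262 (without control ESC replicate 2) to 0.702, and Hand1 in knockdown NPC against knockdown ESC from -0.011 to 0.073. The cause was not tested. Signal near the lower quartile of the arrays limits Elf5 and, in NPC, Tfap2c, Eomes and Ascl2.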

Other observations

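Markers of other lineages were measured beside the trophoblast genes. Of 21 primitive and visceral endoderm markers, 3 fell and 1 rose in knockdown ESC, and only 1 fell without control ESC replicate 3. Among them were Dab2, an endocytic adaptor (-0.99 ± 0.20, limma adjusted p = 0.0152, lost without replicate 3 of either ESC group, highest 0.0895), Lrp2, the megalin receptor (-0.95 ± 0.13, 0.00298), and Lama1, a laminin chain of the basement membrane (0.86 ± 0.15, 0.00826). Their summed linear level was 18287 to 18917 in knockdown ESC, against 18192 to 19144 in control ESC. Of 16 mesoderm markers, Tcf15 fell (-0.59 ± 0.088, adjusted p = 0.00391) and Tbx6 rose (0.43 ± 0.097, 0.0237) in knockdown ESC, with the Tbx6 call lost without control ESC replicate 3 or any knockdown ESC array (highest 0.126). Of 12 neural progenitor markers, 3 fell and 1 rose there, with Cdh2, the N-cadherin gene, at -0.99 ± 0.11 (0.000939), Pax6 at -0.91 ± 0.20 (0.0197, lost without replicate 2 or 3 of either ESC group, highest 0.0936) and Slc1a3 at -0.56 ± 0.087 (0.00488). The marker that rose is not named, since its difference was smaller than those of these 3, and left-out arrays gave 0 to 1 that rose. The median of the 12 was -0.16. Of all genes, 3.37% fell and 1.84% rose in knockdown ESC.

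Of 16 other intermediate filament genes, 2 fell and 0 rose in knockdown ESC, the neurofilament gene Nefl (-1.24 ± 0.20, limma adjusted p = 0.00552) and the lamin gene Lmnb1 (-0.28 ± 0.075, 0.0494). The count was 1 to 2 with left-out arrays, and the Lmnb1 call held only without control ESC replicate 1 (highest adjusted p 0.147). In control NPC relative to control ESC, 4 of these rose and 7 fell, with a list median of -0.20. Nes, the nestin gene, was higher by 2.24 and Nefm by 2.46, and Nefh was 3.38-fold lower. Of 11 surface ectoderm and keratinocyte markers, 1 rose and 3 fell in control NPC relative to control ESC, and Sfn, the stratifin gene, was 8.53-fold lower in NPC. For both lists, the share of all genes in that comparison was 23.5% higher and 25.1% lower.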
